A study of Drosophila melanogaster with 8 samples.

Results

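The Iroquois complex of Drosophila melanogaster comprises araucan (ara), caupolican (caup) and mirror (mirr). These 3 genes were identified by their symbols among the 17730 genes measured in each of 8 RNA-seq libraries. Of the 3, only mirr had enough reads to enter the test across all genes, which covered 11606 genes. Transcripts of mirr were about 27-fold more abundant in ML-DmD17-c3 cells than in S2-DRSC cells. Transcripts of ara and caup stayed near the limit of detection in both lines.

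Polyadenylated RNA was sequenced from 4 culture flasks of ML-DmD17-c3 (D17-c3), a clonal line derived from larval imaginal discs, and from 4 flasks of S2-DRSC, a stock of the embryonic S2 line, which has features of hemocytes, the blood cells of the fly. The labels name no treatment or genetic change in either line, and the series as a whole concerns Polycomb group proteins. Both are cultured lines, 1 line stands for each origin, and a difference between them cannot be told apart from other differences between these lines. Library totals ran from 76822525 to 110163700 expected counts.

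Iroquois proteins are homeodomain transcription factors of the TALE class, whose homeodomain carries an extra loop of amino acids, and they also share a short motif called the Iro box. In the fly they specify the notum, the dorsal part of the eye and the proneural clusters and veins of the wing, and mirr also acts in the follicle cells of the ovary. In the wing disc ara and caup are usually expressed in overlapping patterns, while mirr has a partly separate pattern, and enhancers spread over the complex serve more than 1 of the genes. EGFR, Hedgehog, BMP and JAK/STAT signals are known to place their borders, and the complex is a classical target of Polycomb repression.

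All 3 genes lie on the plus strand of chromosome arm 3L of the BDGP6 assembly, and no other annotated gene overlaps any of them. The gene ara (FBgn0015904) spans positions 12580672 to 12596018 and has 2 annotated transcripts, of 2918 and 2942 bases. The gene caup (FBgn0015919) follows at 12609631 to 12621798, 13.6 kb after ara, with a single transcript of 4317 bases. The gene mirr (FBgn0014343) lies 71.8 kb further on, at 12693639 to 12710249. It has 3 annotated transcripts of 5 exons each, 2 of 3892 bases and 1 of 3019 bases. All 24 expected counts of the members were whole numbers, so none of their reads had been divided with another gene in part.

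The read counts of mirr were 1960, 419, 1389 and 1754 in D17-c3 replicates 1 to 4, against 58, 58, 51 and 41 in S2-DRSC replicates 1 to 4. In counts per 1000000 of the TMM-scaled library size (CPM), mirr stood at 20.5, 4.46, 17.5 and 19.3 in D17-c3, against 0.639, 0.569, 0.541 and 0.519 in S2-DRSC. Every D17-c3 library lay above every S2-DRSC library, D17-c3 replicate 2 was the lowest of its line, and the S2-DRSC libraries lay close together. The means were 15.4 ± 7.40 CPM in D17-c3 and 0.567 ± 0.0523 CPM in S2-DRSC (SD, n = 4 each). The log2 fold change of D17-c3 over S2-DRSC was 4.76 ± 0.46 (SE), with an adjusted p of 9.65e-06 in edgeR's quasi-likelihood test with Benjamini-Hochberg adjustment. This corresponds to a 27.1-fold difference, with a 95% interval of 14.5 to 50.8 from that SE by a normal approximation. With the few degrees of freedom of this test, that interval is somewhat too narrow.

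mirr was thus the single member called of the single member tested. Calls were common between these lines: 75.2% of the tested genes passed the threshold of 0.05, made up of 39.1% higher in D17-c3 and 36.1% higher in S2-DRSC. Of all calls, 52.0% were higher in D17-c3, and 62.9% on the log2(TPM + 1) scale. A call on its own therefore said little about mirr, and its size placed it better. A larger log2 fold change was fitted for 531 tested genes, and 95.4% of the tested genes lay below mirr. Among 6599 tested genes with at least 10 CPM in D17-c3, 174 were called with a fold change at least as large. In bulk RNA, fewer cells that express a gene and less RNA per cell cannot be told apart.

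**Figure D1:**
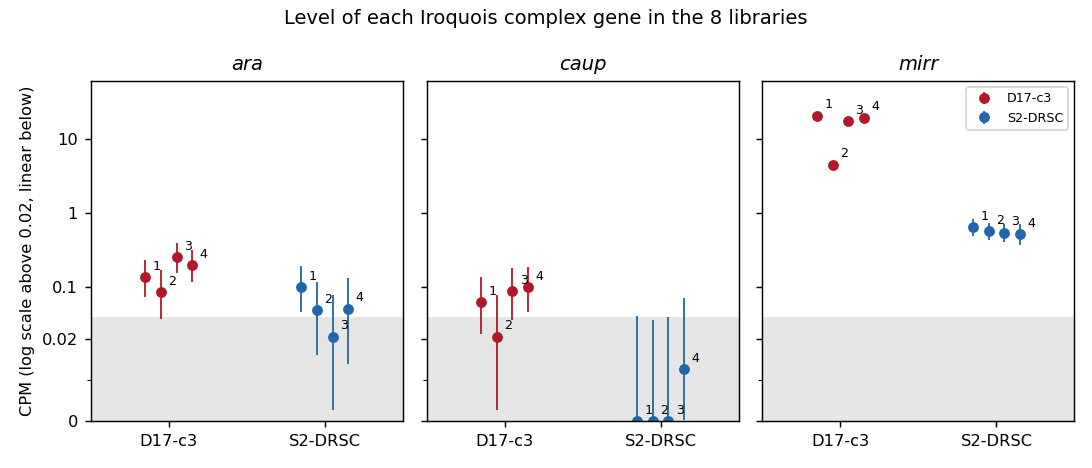
CPM of ara, caup and mirr in each library (log scale above 0.02 and linear below), D17-c3 left of S2-DRSC, with numbered replicates, bars for the 95% Poisson counting interval of each library and a grey band under the highest library level of 3 counts. mirr separates the lines in all 8 libraries, while ara and caup lie near or within the grey band.

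On the scale of TPM, the share of a library's transcripts after division by length, mirr was listed at 8.59, 2.05, 6.44 and 8.53 in D17-c3, against 0.24, 0.20, 0.20 and 0.18 in S2-DRSC. Its level was moderate in D17-c3, above that of 52.6%, 40.8%, 49.8% and 51.9% of the genes listed above 0 in replicates 1 to 4. In S2-DRSC it stood above 26.6%, 26.6%, 25.4% and 24.0% of them. The S2-DRSC level was nevertheless counted, with 41 to 58 reads a library, above the floor of 3 counts.

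ara had 13, 8, 20 and 18 counts in the D17-c3 libraries, against 9, 5, 2 and 4 counts in the S2-DRSC libraries. These counts equal 0.136, 0.0852, 0.251 and 0.198 CPM in D17-c3, against 0.0992, 0.0491, 0.0212 and 0.0507 CPM in S2-DRSC. The lines overlapped, since D17-c3 replicate 2 lay below S2-DRSC replicate 1, and S2-DRSC replicate 3 held fewer than 3 counts. ara did not pass the filter on low counts and has no call. The means were 0.168 ± 0.0724 CPM in D17-c3 and 0.0550 ± 0.0324 CPM in S2-DRSC (SD, n = 4 each), with a two-sided exact permutation p of 0.0571. The ratio of the summed counts, scaled by library size, was 3.00 with a 95% counting interval of 1.78 to 5.25. That interval covers counting error alone and leaves out the spread between flasks. When the filter was dropped, edgeR gave ara a log2 fold change of 1.53 ± 0.49 with an adjusted p of 0.0190, in a fit of 16098 genes of which 61.1% were called, 31.7% as higher in D17-c3. Whether ara differed between the lines therefore turned on the test.

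caup had 6, 2, 7 and 9 counts in the D17-c3 libraries, against 0, 0, 0 and 1 count in the S2-DRSC libraries. Every D17-c3 library lay above every S2-DRSC library, yet D17-c3 replicate 2 held only 2 counts, under the floor of 3. The D17-c3 mean was 0.0677 ± 0.0345 CPM (SD, n = 4), against a single read in 4 S2-DRSC libraries, where TPM was listed at 0 throughout. The ratio of summed counts was 24.4, with a 95% counting interval of 3.98 to 1002, so its size is hardly fixed. The two-sided exact permutation test on CPM gave 0.0286, the smallest p that 4 against 4 libraries allow. Without the filter edgeR gave a log2 fold change of 4.01 ± 0.92 with an adjusted p of 0.00279. Separation of the lines was frequent in the data at large, at 71.6% of tested genes and 22.3% of the 4492 genes with counts that did not pass the filter.

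The 3 members thus kept the order mirr, ara, caup by TPM in both lines. mirr made up 99.0%, 97.2%, 97.9% and 98.4% of the summed TPM of the complex in D17-c3, against 85.7%, 90.9%, 95.2% and 90.0% in S2-DRSC. Its share was higher in every D17-c3 library, with means of 98.1 ± 0.768% in D17-c3 and 90.5 ± 3.91% in S2-DRSC (SD, n = 4 each). The two-sided exact permutation p was 0.0286, the smallest possible. The share of ara was lower in every D17-c3 library, at 1.53 ± 0.663% in D17-c3 and 9.53 ± 3.91% in S2-DRSC (SD, n = 4 each, the same exact p). With caup listed at 0 in S2-DRSC, the ara share there is what mirr leaves, so it is not a separate result. The mean TPM of ara itself was higher in D17-c3, at 0.085 against 0.0225 in S2-DRSC. The S2-DRSC shares of ara rest on 2 to 9 reads a library. The share of caup was 0.377 ± 0.113% in D17-c3 and listed at 0 in S2-DRSC (SD, n = 4 each), but deposited TPM values are rounded to 2 decimals. Computed from expected counts over effective length, the caup share had an S2-DRSC mean above the D17-c3 mean, by 0.0732 percentage points, with an exact permutation p of 1, so no order can be read for caup.

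RSEM reports a gene's length as a mean over its transcripts weighted by their estimated abundance, and for mirr this reads out the balance between the long and the short transcripts. The short form differs from the long ones at its 3′ end. The weighted length was 3580, 3561, 3539 and 3480 bases in D17-c3, against 3474, 3474, 3551 and 3507 bases in S2-DRSC. The lines overlapped, with means of 3540 ± 43.6 bases in D17-c3 and 3502 ± 36.7 bases in S2-DRSC (SD, n = 4 each). The difference of 38.6 bases gave a two-sided exact permutation p of 0.229. By these lengths, 59.7 ± 4.998% of mirr transcripts in D17-c3 and 55.3 ± 4.21% in S2-DRSC carried the longer end (SD, n = 4 each). A difference in the use of the mirr ends was not detectable here, and the S2-DRSC values come from few reads. The length of ara was 2918 bases in 8 of 8 libraries, the value of its shorter transcript.

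Within D17-c3, replicate 2 had the lowest value of all 3 members. mirr had 4.46 CPM there, against 19.1 ± 1.51 CPM over the other 3 libraries (SD), a 4.27-fold gap. Among 7315 genes with at least 5 CPM in D17-c3, 20, mirr included, were at least as low in replicate 2 relative to the other libraries (0.273%). Such gaps were uncommon, since 3.91% of those genes were at least 2-fold lower in replicate 2 and 2.49% at least 2-fold higher. Across all tested genes, log2 CPM in replicate 2 correlated with the other D17-c3 libraries at 0.976 to 0.985. At best, D17-c3 replicates 1, 3 and 4 reached 0.995, 0.993 and 0.995 with another library of that line. The S2-DRSC libraries correlated with each other at 0.994 to 0.997. All these correlations are over genes, which are not independent replicates. Without D17-c3 replicate 2, the log2 fold change of mirr was 5.06 ± 0.11 with an adjusted p of 1.23e-10 in edgeR.

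Several genes of the signalling pathways described below were low in the same library. Egfr, the EGF receptor gene, had 151 CPM in D17-c3 replicate 2 against 421 CPM on average over the rest of that line. The secreted signal hh had 56.8 CPM against 133 CPM, the spalt gene salr 14.1 against 36.5 CPM, and fringe (fng) 67.4 against 123 CPM. Others were level or higher there. ci, the transcription factor of the Hedgehog pathway, had 417 CPM in replicate 2 against 353 CPM, hth 54.4 against 56.8 CPM, and wg 7.54 against 3.20 CPM. Markers of other cell types went both ways in replicate 2. Mhc, a muscle myosin gene, had 8.36 CPM there against 1.47 CPM in the rest of the line, and He, a hemocyte surface gene, 14.6 against 2.21 CPM, while the hemocyte gene Hml had 121 against 298 CPM and ct, on the muscle and myoblast list, 199 against 307 CPM. The summed levels of both lists were lowest in replicate 2, at 1214 CPM against 1326 to 1448 CPM for hemocytes and 265 against 333 to 374 CPM for muscle and myoblasts. Such sums weigh abundant genes most. The hemocyte genes NimC1, eater, Col4a1 and vkg were higher in replicate 2, at 4.34, 94.4, 20.5 and 10.3 CPM against 1.06, 65.3, 13.9 and 7.99 CPM. Nplp2 was slightly higher, at 3.71 against 3.47 CPM. Pxn was lower, at 26.6 against 37.2 CPM, and srp and ush slightly lower, at 391 and 527 against 404 and 555 CPM. Of the muscle and myoblast genes, Mef2 and twi were also higher there, at 55.7 and 0.352 against 48.3 and 0.193 CPM. Act57B was lower, at 1.25 against 1.49 CPM. The glia sum was highest in replicate 2, at 367 CPM against 264 to 290 CPM. Sums for neurons, follicle cells and fat body were lowest there. Among neuron genes, elav and Appl were lower there, at 26.7 and 4.57 CPM against 30.4 and 8.18 CPM. nSyb, Syt1 and brp were higher, at 0.788, 0.629 and 1.21 CPM against 0.546, 0.454 and 1.16 CPM. Of the follicle cell genes, Vm34Ca and Cp36 were higher there, while Vm26Aa, Yp1 and slbo were lower. The part of any of these cell types in the mirr values of that library was not tested.

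By a rule of likeness, bru3, sim and CG12075 followed mirr most closely within D17-c3. The measure was the root mean square difference of log2 CPM deviations from the line mean over the 4 D17-c3 libraries, among 7314 genes with at least 5 CPM. It was 0.0702 for bru3, 0.0938 for sim and 0.0960 for CG12075, against a median of 0.887. bru3, which encodes an RNA-binding protein of the Bruno family, had 86.6, 20.4, 82.1 and 80.9 CPM in D17-c3 replicates 1 to 4, and sim, a transcription factor of the ventral midline, 54.4, 10.1, 41.3 and 49.3 CPM. Both dropped in the same library as mirr, which is what the measure picked them for. Over all 8 libraries, CG13526, lncRNA:CR44586 and CG34120 were nearest, with differences of 0.128, 0.151 and 0.180 against a median of 2.34 over 11605 genes. CG13526 and lncRNA:CR44586 had 0 counts in every S2-DRSC library, so their S2-DRSC values on the log scale were set by the prior count. CG34120 had 4.36 ± 2.07 CPM in D17-c3 and 0.172 ± 0.0397 CPM in S2-DRSC (SD, n = 4 each).

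**Figure D2:**
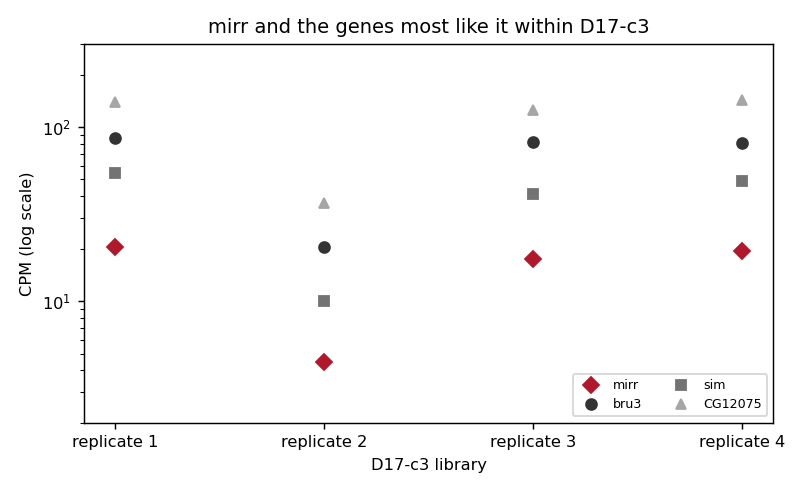
CPM (log axis) of mirr, bru3, sim and CG12075 in D17-c3 replicates 1 to 4, 1 point per library. All 4 genes are lowest in replicate 2, at 4.46 CPM for mirr and 20.4 CPM for bru3.

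The surroundings of the complex were described next. Between caup and mirr the annotation places 4 noncoding genes, and none had enough reads to be tested. lncRNA:CR43431 had 20 counts over the D17-c3 libraries and 1 over the S2-DRSC libraries, lncRNA:CR32111 had 10 in D17-c3 and 1 in S2-DRSC, lncRNA:CR44552 had 2 in D17-c3 against 0 in S2-DRSC, and lncRNA:CR44553 had 1 in D17-c3 against 0 in S2-DRSC. The annotated noncoding genes of this interval thus had at most 20 reads in the 4 libraries of a line, and sequence outside annotated genes was not counted.

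Within 50 kb on either side of the complex, 14 genes were tested, and 12 were higher in D17-c3 (85.7%) and 0 higher in S2-DRSC. The share called higher in D17-c3 among all tested genes was 39.1%. Their median log2 fold change was 1.21, against 0.04 over all tested genes, and none came near the 4.76 of mirr. The nearest gene before ara is sowah, 8.13 kb upstream, which had 220 ± 9.08 CPM in D17-c3 and 135 ± 5.58 CPM in S2-DRSC (SD, n = 4 each). Its log2 fold change was 0.70 ± 0.06, with an adjusted p of 4.17e-06 in edgeR. The nearest after mirr is SmD1, a core protein gene of the splicing snRNPs, 23.1 kb away. It had 41.9 ± 6.85 CPM in D17-c3 and 19.3 ± 1.89 CPM in S2-DRSC (SD, n = 4 each), with a log2 fold change of 1.12 ± 0.13 and an adjusted p of 2.65e-05 in edgeR. sowah and SmD1 were thus expressed in both lines, at CPM levels well above those of ara and caup.

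Of the 6 flanking genes before ara, 4 were higher in D17-c3, and Tsf2, a transferrin gene, had the largest log2 fold change of 1.76 ± 0.09. CG34242 had 1.60 ± 0.16, and lncRNA:CR43612, which lies inside the span of sowah on the opposite strand, had 1.38 ± 0.36. Pmm2 and CG4069 were not called, with log2 fold changes of 0.08 and −0.25. All 8 genes after mirr were called higher in D17-c3. CG32112 had a log2 fold change of 1.62, Vps13D 1.39, CG32109 1.31, CG10984 1.299, the receptor phosphatase gene Ptp69D 1.09, CG10973 0.96 and the kinesin light chain gene Klc 0.27. Some of these genes overlap a neighbour on the opposite strand, and the sources used here do not say whether counting used strand, so reads may be shared between them.

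**Figure D3:**
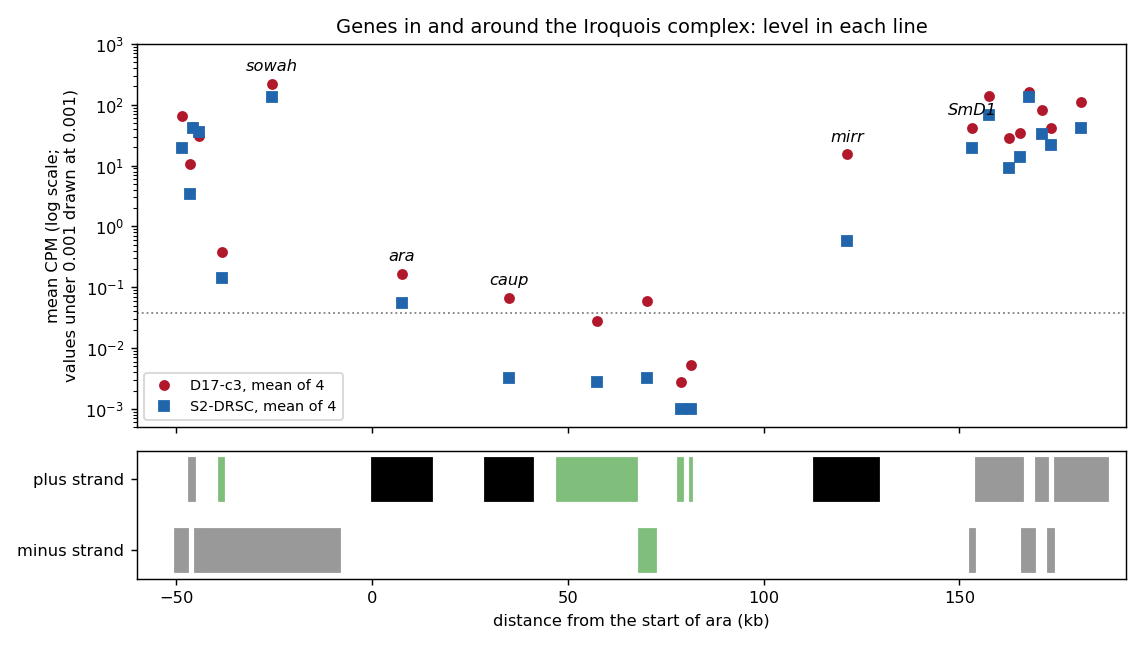
Upper panel, mean CPM (log axis) over 4 libraries of each annotated gene from 50 kb before ara to 50 kb after mirr, for D17-c3 and S2-DRSC, against distance of the gene's midpoint from the start of ara in kb, with a dotted line at the highest library level of 3 counts and values under 0.001 drawn at 0.001. Lower panel, gene spans by strand, with members in black, noncoding genes in green and other genes in grey; flanking genes other than lncRNA:CR43612 lie far above the dotted line in both cell lines, while ara, caup and the noncoding genes lie near or below it.

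The excess of calls was not limited to the near flanks. In a window of 500 kb on either side, which was chosen after the values of the near flanks were seen, 106 other genes were tested. Of these, 78 were higher in D17-c3 (73.6%) and 10 higher in S2-DRSC, with a median log2 fold change of 0.97. Outside the nearest 50 kb the median was still 0.94 over 92 genes. Over the 2257 tested genes of arm 3L, 43.4% were higher in D17-c3 and the median was 0.13. Only 3 of the 106 genes had a log2 fold change at least as large as that of mirr, namely Sema5c, CG17154 and asRNA:CR11538.

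**Figure D4:**
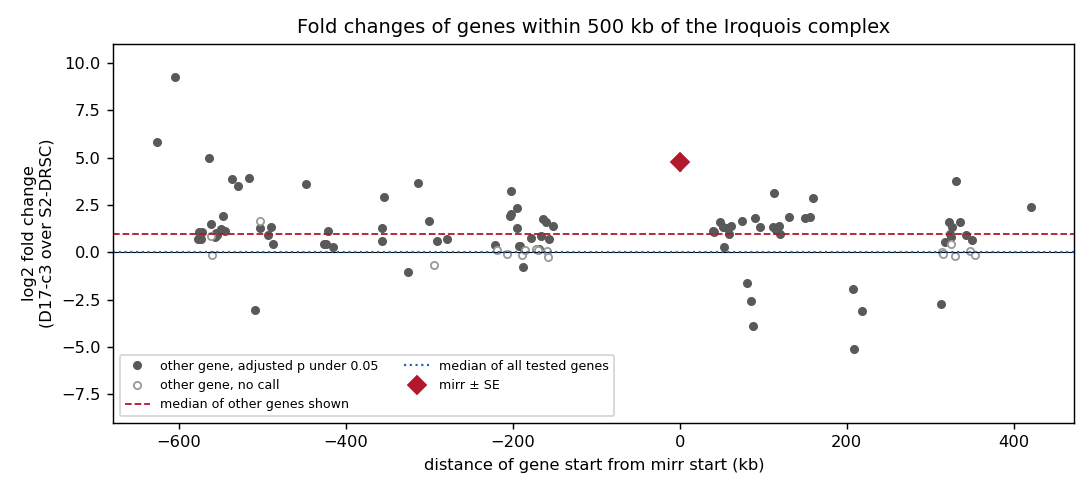
Log2 fold change of D17-c3 over S2-DRSC for each tested gene within 500 kb of the complex against distance of its start from the start of mirr in kb, with filled points for an adjusted p under 0.05, open points for no call, and lines at the medians of the genes shown and of all tested genes. Most points lie above 0 around a median of 0.97, and mirr (diamond) at 4.76 lies above all but 3 of them.

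The signals that are known to set Iroquois borders differed in part. For these 11 lists of pathway, partner and target genes, 80 of 90 distinct genes were tested, of which 40 (50%) were higher in D17-c3 and 23 (28.8%) higher in S2-DRSC. Over all tested genes these shares were 39.1% and 36.1%, and the counts of calls in each list below stand against that background. Their median log2 fold change was 0.28, against 0.04 over all tested genes.

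On the EGFR list, all 9 genes were tested and the calls favoured S2-DRSC, with 2 called as higher in D17-c3, 6 as higher in S2-DRSC and a median of −0.92. Egfr had 354 ± 137 CPM in D17-c3 and 0.965 ± 0.140 CPM in S2-DRSC (SD, n = 4 each), a log2 fold change of 8.52 ± 0.41. vn, a neuregulin-like ligand that activates ara and caup in the notum, had 22.7 CPM in D17-c3 and 6.35 CPM in S2-DRSC, a log2 fold change of 1.84. The ligand gene grk and the ETS factor gene pnt were higher in S2-DRSC, with log2 fold changes of −2.35 and −1.71. The receptor and 1 ligand thus differed in one direction and most of the pathway in the other.

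The Hedgehog list had 7 tested genes, with 4 calls toward D17-c3 and 1 toward S2-DRSC. hh had 114 ± 39.2 CPM in D17-c3 and 0.569 ± 0.0550 CPM in S2-DRSC (SD, n = 4 each), with a log2 fold change of 7.64, and ci had a log2 fold change of 7.37. cos, a kinesin-like member of the pathway, was lower in D17-c3, with a log2 fold change of −0.67. hh and ci had the largest fold changes of the list, and the receptor gene ptc came next at 1.43.

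All 11 genes on the BMP list were called, 7 toward D17-c3 and 4 toward S2-DRSC. The spalt genes salr and salm, zinc-finger genes that act downstream of BMP signalling, had log2 fold changes of 6.16 and 4.39, while the ligand gene dpp and the zinc-finger gene shn had −1.43 and −0.93. Calls among 5 tested JAK/STAT genes were split, with 2 toward each line. The cytokine genes upd3 and upd2 had log2 fold changes of 1.23 and 0.78, and Stat92E and the receptor gene dome had −0.26 and −0.22. The calls of upd2, Stat92E and dome were lost under several alternatives. On the Wnt list 4 of 7 tested genes were called toward D17-c3 and 0 toward S2-DRSC. The ligand gene wg had 4.28 CPM in D17-c3 and 0.108 CPM in S2-DRSC, a log2 fold change of 5.30, and the receptor gene fz had 133 CPM in D17-c3 and 8.73 CPM in S2-DRSC, a log2 fold change of 3.93.

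**Figure D5:**
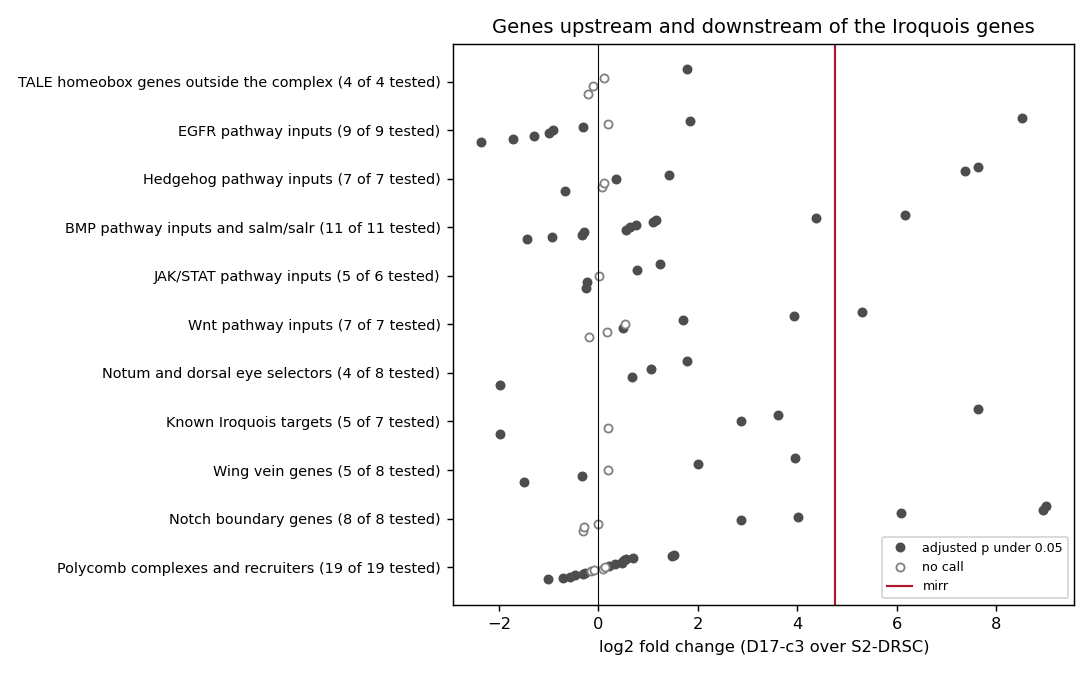
Log2 fold change of D17-c3 over S2-DRSC for each tested gene of the 11 lists of pathway, partner and target genes, with filled points for an adjusted p under 0.05, open points for no call and a red line at the value of mirr. Genes of the EGFR, Hedgehog, BMP, Wnt, target and Notch lists reach beyond that line, the EGFR list lies mostly below 0 apart from Egfr, vn and rho, and the Polycomb genes reach at most 1.53.

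The other TALE homeobox genes were measured in both lines, and only hth of the 4 was called. hth, a Meis-type gene of the wing hinge, the notum and the eye margin, had 56.2 ± 6.66 CPM in D17-c3 and 16.4 ± 0.802 CPM in S2-DRSC (SD, n = 4 each), a log2 fold change of 1.78 ± 0.10 with an adjusted p of 1.82e-07 in edgeR. exd, its PBC-type partner, had 136 CPM in D17-c3 and 125 CPM in S2-DRSC, with an adjusted p of 0.290. The TGIF genes achi and vis had 32.5 and 10.5 CPM in D17-c3, against 37.8 and 11.4 CPM in S2-DRSC, and were not called. Without D17-c3 replicate 2, achi and vis were called higher in S2-DRSC, with log2 fold changes of −0.35 and −0.22, and without D17-c3 replicate 3 exd was called higher in D17-c3 at 0.20. exd was also called higher in D17-c3 with library totals, at 0.29, and on the log2(TPM + 0.1) scale, at 0.33. The sign of vis turned positive with library totals or TPM.

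Of the 8 notum and dorsal eye selector genes, 4 were tested, with 3 calls toward D17-c3 and 1 toward S2-DRSC. pnr, a GATA factor gene that patterns the medial notum and the dorsal eye upstream of the complex, had 88.3 ± 16.5 CPM in D17-c3 and 348 ± 20.1 CPM in S2-DRSC (SD, n = 4 each). Its log2 fold change was −1.98 ± 0.13, with an adjusted p of 8.23e-07 in edgeR. Its cofactor gene ush had 548 CPM in D17-c3 and 344 CPM in S2-DRSC, and the zinc-finger gene tsh had 196 CPM in D17-c3 and 94.3 CPM in S2-DRSC, with log2 fold changes of 0.67 and 1.05. ush is also on the list of hemocyte markers. The others were too low to test. The LIM-homeodomain gene tup had 34 counts over the D17-c3 libraries and 9 over the S2-DRSC libraries. The Pax gene eyg had 11 counts in D17-c3 and 3 in S2-DRSC, its neighbour toe had 6 in D17-c3 against 14 in S2-DRSC, and the homeobox gene Dr had 58 in D17-c3 and 4 in S2-DRSC. These 4 selectors were thus low, although Dr had 7 to 25 counts a library in D17-c3, above the floor of 3. Without a filter, 5 genes of this list were called higher in D17-c3, in a fit where 31.7% of all genes were.

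Of 7 genes on a list of Iroquois targets in the disc or the ovary and neighbours of the target ac, 5 were tested. The calls were 3 toward D17-c3 and 1 toward S2-DRSC. The proneural gene ac, which ara and caup activate in the wing disc, had 0.816 ± 0.0986 CPM in D17-c3 (SD, n = 4). That was 295 counts in all, against 1 count in the 4 S2-DRSC libraries. Its neighbours sc, with 24 counts in D17-c3 against 0 in S2-DRSC, and l(1)sc, with 12 in D17-c3 and 1 in S2-DRSC, were too low to test, and ase had 0.248 CPM in D17-c3 and 0.0194 CPM in S2-DRSC. ac and these 3 neighbours were therefore low, with means under 1 CPM in both lines.

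fng, a glycosyltransferase gene that mirr represses in the dorsal eye, had 109 ± 28.2 CPM in D17-c3 and 14.9 ± 1.73 CPM in S2-DRSC (SD, n = 4 each). Its log2 fold change was 2.87 ± 0.20, with an adjusted p of 1.06e-06 in edgeR. pip, a sulfotransferase gene that mirr represses in the follicle cells, had 0.556 ± 0.0612 CPM in D17-c3 and 2.21 ± 0.226 CPM in S2-DRSC (SD, n = 4 each), with a log2 fold change of −1.99 ± 0.17 and an adjusted p of 3.55e-06 in edgeR. The genes that mirr is known to repress thus differed in opposite directions. The protease gene rho had 21.7 CPM in D17-c3 and 19.1 CPM in S2-DRSC and was not called, with an adjusted p of 0.151 in edgeR. It was called higher in D17-c3 at 0.35 with library totals, 0.38 on the log2(TPM + 1) scale and 0.41 on the log2(TPM + 0.1) scale, with adjusted p of 0.0185, 0.0301 and 0.0259. When genes had to reach 1 CPM in at least 4 libraries, only 1 gene of this list was called higher in D17-c3, and without a filter 5 were.

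Of 8 wing vein genes, 5 were tested, with 2 calls toward each line. The zinc-finger gene ab had 12.6 CPM in D17-c3 and 0.814 CPM in S2-DRSC, a log2 fold change of 3.96, and px had a log2 fold change of 1.99. kn and bs were lower in D17-c3, with log2 fold changes of −1.50 and −0.32. The call of bs was lost with library totals and on both log2 TPM scales, and that of kn on the log2(TPM + 1) scale. Of the 8 genes of the Notch boundary list, 5 were called toward D17-c3 and 0 toward S2-DRSC, with a median of 3.44. The Notch target genes E(spl)m8-HLH and E(spl)m7-HLH had log2 fold changes of 9.01 and 8.95, while N, Ser and Su(H) were not called. The ligand gene Dl had 4.58 CPM in D17-c3 and 0.281 CPM in S2-DRSC.

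Of 19 genes of Polycomb complexes and their recruiters, 9 were called toward D17-c3 and 6 toward S2-DRSC, with a median log2 fold change of 0.13. Psc and ph-p, subunits of PRC1, had log2 fold changes of 1.53 and 1.48. Caf1-55, a histone-binding subunit of PRC2, and Pc, the chromodomain subunit of PRC1, were higher in S2-DRSC, with log2 fold changes of −1.02 and −0.72. All 19 were expressed in both lines, and the histone marks over the complex were not analysed here.

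The labelled origins were checked against marker lists. Of 9 tested markers of imaginal disc epithelium, 8 were higher in D17-c3 and 1 higher in S2-DRSC, and the summed level was 942 to 1078 CPM in D17-c3 and 237 to 265 CPM in S2-DRSC. en had 46.4 CPM in D17-c3 and 0.0852 CPM in S2-DRSC, while ap, the dorsal selector gene of the wing disc, had 0.191 CPM in D17-c3 and 4.99 CPM in S2-DRSC. The wing genes nub and vg were low in D17-c3, at 0.274 and 1.41 CPM, against 0.104 and 0.242 CPM in S2-DRSC, and Dll was too low to test. sd, whose product partners with that of vg in the wing, was abundant in both lines, at 396 CPM in D17-c3 against 206 CPM in S2-DRSC. Of the same list, shg and grh were higher in D17-c3, at 125 and 22.2 CPM against 22.6 and 1.51 CPM in S2-DRSC. In D17-c3, nub, vg, ap and Dll were thus low while other genes of the list were higher than in S2-DRSC.

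Of 10 hemocyte markers, 2 were higher in D17-c3 and 6 higher in S2-DRSC, with sums of 1214 to 1448 CPM in D17-c3 and 10714 to 11791 CPM in S2-DRSC. Hml had 253 CPM in D17-c3 and 2995 CPM in S2-DRSC, and the GATA factor gene srp had 401 CPM in D17-c3 and 321 CPM in S2-DRSC. Hemocyte genes were therefore not absent from D17-c3. Follicle cell markers, of interest because mirr acts there, were low, with sums of 3.41 to 4.37 CPM in D17-c3 and 0.266 to 0.657 CPM in S2-DRSC, and 4 of 4 tested were higher in D17-c3. Sums were 33.9 to 43.0 CPM in D17-c3 and 97.0 to 107 CPM in S2-DRSC for neurons, and 264 to 367 CPM in D17-c3 and 209 to 273 CPM in S2-DRSC for glia. They were 265 to 374 CPM in D17-c3 and 307 to 318 CPM in S2-DRSC for muscle and myoblasts, and 1.21 to 2.02 CPM in D17-c3 and 0.545 to 0.971 CPM in S2-DRSC for the fat body. The muscle and myoblast values cover 5 of 6 listed genes, because the listed symbol him was not matched. No matched marker was at 0 in all libraries of a line, and the part of any of these cell types in the mirr values was not tested.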

How the data were processed

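The members and lists of genes were chosen with earlier results of these data known. The lists comprise 11 of pathway, partner and target genes and 7 of cell type markers. Per the file headers, the authors deposited 1 table of RSEM gene results per library, which gives length, effective length, expected counts, FPKM and TPM of 17730 genes. RSEM, STAR 2.7.3a, Trim Galore 0.6.4, DESeq2 1.30.1, Subread 2.0.0 and featureCounts are named in the submitters' processing notes with no role for each, as are the builds dm6 and BDGP6. The kit marks strand, per the labels' protocols. The sources used here do not say whether counting used it. The labels describe 4 separate flasks per line.

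The deposited expected counts, which are estimated counts, were rounded to whole numbers. Of the nonzero values, 21.2% to 22.4% were not whole before rounding. The test was edgeR 4.0.16's quasi-likelihood F test (TMM, filterByExpr, design by line, all 8 libraries, Benjamini-Hochberg threshold 0.05, prior degrees of freedom 3.23). CPM values are counts over TMM-scaled library sizes, and the SE was taken as log2 fold change (absolute) divided by the root of F. A floor of 3 counts equals 0.0294 to 0.0380 CPM. The labels' protocols name no molecular identifiers, so intervals and floors cover counting error only. Deposited TPM gave levels and shares, and the deposited FPKM values entered only an alternative for the shares.

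Positions come from Ensembl release 115, BDGP6, which holds 17633 of the 17730 identifiers. Single values were compared with two-sided exact permutation tests over 70 arrangements of libraries (scipy 1.17.1). On simulated data of 11606 genes, the edgeR test found 78.1% of genes altered 2-fold, 92.4% altered 4-fold and 100% altered 8-fold. It called 0.0553% of unchanged genes. Only 64, 66 and 61 tested genes were altered at those sizes in the simulation, while 75.2% of tested genes were called in the data. The simulated relative spread of a gene was also the same in both lines, so these rates need not hold for these data.

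Named genes are the 3 members, all annotated genes within 50 kb, all TALE, target and notum genes, the 2 called genes per direction with the largest fold change in each other list, and the 3 genes most like a tested member. Other genes were named after their values were seen. Alternatives were DESeq2 1.42.0, limma 3.58.1 on voom and log2 TPM values, other scalings and filters, a replicate block, and leaving out each library.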

Additional observations from a re-analysis of the deposited data

Results flagged for a closer look

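Among 136 groups of 4 libraries tested with Dixon's test at its 95% critical value, 17 held a library far from the other 3, and chance alone gives about 5% of groups. D17-c3 replicate 2 was that library in 9 of the 17, as the lowest in 6 and the highest in 3. mirr was not among them, nor were ara and caup. The 17 and the 9 both include bru3, CG12075 and CG13526, low in replicate 2 and chosen for likeness to mirr. Both counts are therefore partly selected and cannot be set cleanly against the chance rate.

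In D17-c3 replicate 2, Egfr had 151 CPM against 402 to 451 CPM in the other D17-c3 libraries, salr 14.1 against 35.9 to 37.8, and fng 67.4 against 118 to 127. The genes most like mirr were low there too, with bru3 at 20.4 CPM against 80.9 to 86.6, CG12075 at 36.7 against 125 to 143, and CG13526 at 0.128 against 0.637 to 0.737, and all 3 were chosen for a likeness measured over libraries that include this one, so their values here are selected. Higher in the same library were CG10973, with 64.7 CPM against 33.6 to 36.5, CG32112, with 36.9 against 24.6 to 26.3, and tup, with 0.160 against 0.0628 to 0.0770. CG34242 had 14.1 CPM in D17-c3 replicate 3 against 9.04 to 9.48 in the other D17-c3 libraries.

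In S2-DRSC, replicate 1 had 1.26 CPM of dpp against 0.991 to 1.01, 0.232 of CG34120 against 0.148 to 0.157, and 0.0661 of bru3 against 0.148 to 0.157. S2-DRSC replicate 2 had 6.78 CPM of vn against 6.17 to 6.24, and 7.36 of fz against 9.15 to 9.26. lncRNA:CR43612 had 0.265 CPM in S2-DRSC replicate 3 against 0.0887 to 0.110, and tsh 82.3 CPM in S2-DRSC replicate 4 against 96.7 to 99.5.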

How the results depend on the processing

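The call of mirr kept its direction and side of the threshold under all 17 alternatives, with log2 fold changes of 2.49 to 5.06 and adjusted p from 5.29e-32 to 0.000386. The lowest came from log2(TPM + 1), where the pseudocount exceeds the S2-DRSC level. ara passed the low-count filter in edgeR fits without D17-c3 replicate 2 or without any 1 S2-DRSC replicate. It was called there, at 1.29 to 2.00 with adjusted p of 0.00342 to 0.0401. With a smaller group the filter asks for fewer libraries, and ara met it through D17-c3 replicates 1, 3 and 4, with 13, 20 and 18 counts. These fits thus admitted ara only through the line where it was higher, so their calls are no separate support. The caup share, 0.377 percentage points higher in D17-c3 by TPM, reversed to −0.101 by expected counts and to −0.0732 by expected counts over effective length, the last chosen after seeing the data. With 1 library left out, the shares can reach no exact p under 0.0571, and their differences ran from −9.60 to −6.42 points for ara, 0.344 to 0.425 for caup and 6.05 to 9.22 for mirr. Of 90 listed genes, the 23 higher in S2-DRSC became 15 with library totals, 13 with log2(TPM + 1) and 14 with log2(TPM + 0.1), scalings that moved the median of all tested genes to 0.21, 0.18 and 0.25. Under the same TPM alternatives dome reversed to 0.017 in each and vis to 0.10 and 0.11. With library totals vis reversed to 0.0482. With 1 library left out, Pmm2 ran from −0.0853 (without D17-c3 replicate 2) to 0.143, and the causes were not tested. Other genes that met the naming rule given above kept their sign. The replicate block gave mirr 4.57 with an adjusted p of 5.07e-05 in edgeR and added 1 gene around the complex higher in S2-DRSC, CG4069 at −0.26. Deviations of same-numbered libraries correlated weakly over genes (−0.0394 to 0.115), and not every library correlated best with its own number. No pairing by number was therefore seen, and whether same-numbered flasks were handled together was not tested. Counts near 3 limit ara and caup.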
